A study of Mus musculus with 31 samples.

Results

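The 35 enzymes described here break down amino acids. Histidine, phenylalanine with tyrosine, and the aminotransferases that pass amino groups between amino acids and keto acids are covered by 4 enzymes each. Tryptophan has 5, serine 2, the glycine cleavage system 3, the branched-chain amino acids leucine, isoleucine and valine 10, lysine 2 and proline 1. They were listed by gene symbol, with no threshold on a measured value, though earlier results of these data were known. All 35 were among the 25239 symbols of the counts table, and all 35 passed the filter on low counts in both cell preparations.

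Bulk RNA sequencing counts came from hepatocyte and hepatic stellate cell preparations of C57BL/6J mice of both sexes, an inbred laboratory strain. They had eaten standard chow or FPC, a diet enriched in fructose, palmitate and cholesterol that is used to bring about steatohepatitis, for 16 weeks. Each combination of preparation, sex and diet had 4 libraries, from independent mice per the series design, except the stellate preparations of females on chow with 3 (replicates 1, 2 and 4), which makes 31 libraries. All mice shared the strain, none is labelled as carrying a transgene or receiving a drug, and their age does not stand in the labels. The comparison of interest was FPC against chow in hepatocyte preparations, with the stellate preparations as a reference for RNA carried over from hepatocytes. Levels are CPM, counts divided by the TMM-scaled library size in M (mega) counts, listed in the order of replicates 1 to 4, and library means of several genes are means of log2(CPM + 1). Differences between groups are log2 fold changes with their standard error (SE), FPC minus chow or male minus female. A gene is called when edgeR's quasi-likelihood test gives a Benjamini-Hochberg adjusted p under 0.05 over all genes tested in that preparation.

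Liver is the main site where the carbon of most amino acids is burned or turned into glucose, while their nitrogen leaves as urea. Each pathway opens with a committing step, such as histidine ammonia-lyase (Hal), tyrosine aminotransferase (Tat) or tryptophan dioxygenase (Tdo2), and several of these enzymes are known to follow fasting, glucagon and glucocorticoids. The branched-chain amino acids are handled differently: muscle and other tissues remove their amino group, and liver oxidises the resulting keto acids in mitochondria through the branched-chain keto acid dehydrogenase complex and pathway-specific enzymes downstream.

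Hepatocyte libraries held 3.44 to 30.39 M counts and stellate libraries 9.44 to 40.26 M. The 35 enzymes together took 9947 to 210723 counts in a hepatocyte library and 7634 to 32583 in a stellate library. The library hepatocyte male FPC 4 stood apart: 84.29% of its counts were the ribosomal RNA Rn45s, and 1.38 M counts were left outside Rn45s, Lars2 and Mir6236. In it the enzymes averaged 6.59 on the log2(CPM + 1) scale, against 4.84 to 5.32 in the other male FPC libraries, and the 15 hepatocyte markers averaged 10.99 against 8.06 to 8.61. For the main TMM fit, model counts, some pathway medians and counts of groups without overlap are given with and without it. The settings that use the marker level, as covariate or for scaling, were run only with it. The stellate label did not match its markers: 9 of 10 stellate markers were called higher in the hepatocyte than in the stellate preparations on chow (median log2 difference 2.89), and their summed level was 79.3 to 730.0 CPM in stellate and 152.7 to 1540.0 CPM in hepatocyte libraries, each preparation scaled by itself. The 10 Kupffer cell markers summed to 2489 to 15610 CPM in the stellate libraries. These are therefore called stellate preparations here, without a claim about the cells in them.

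Upstream sequences show the extremes of the enzymes in this study, the histidine enzyme Hal, with the largest fall on FPC under TMM scaling, and the leucine enzyme Auh, with the smallest difference under TMM (1.81 and called higher with libraries scaled to hepatocyte markers, where the median of all genes was 1.87). The sequences cover the same stretch of each gene. They are the 250 bases before the start of transcription from RefSeq (GRCm38.p6), at chr10:93488518-93488767, plus strand, for Hal and at chr13:52929678-52929927, minus strand, for Auh, written 5′ to 3′ on the gene's strand. Capitals mark every CG dinucleotide, the site of DNA methylation in mammals and a feature of CpG-rich promoters.
Hal: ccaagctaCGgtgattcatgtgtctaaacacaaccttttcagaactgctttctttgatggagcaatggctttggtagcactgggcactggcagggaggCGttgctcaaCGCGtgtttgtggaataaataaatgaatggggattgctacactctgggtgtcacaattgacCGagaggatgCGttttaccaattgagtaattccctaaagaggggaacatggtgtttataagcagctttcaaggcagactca
Auh: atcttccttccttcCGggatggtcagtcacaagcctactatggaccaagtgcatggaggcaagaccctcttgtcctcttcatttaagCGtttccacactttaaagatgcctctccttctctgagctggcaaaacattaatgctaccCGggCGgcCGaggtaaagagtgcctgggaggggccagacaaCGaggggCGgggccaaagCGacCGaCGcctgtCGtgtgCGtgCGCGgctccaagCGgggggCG
The Hal sequence holds 6 CG dinucleotides and the Auh sequence 16. Of the 35 enzymes, 30 had a promoter in the RefSeq table, and Kynu, Sds, Sdsl, Dbt and Gpt had none there. The 9 branched-chain enzymes with an entry held a median of 15 CG (range 2 to 20), the 21 enzymes of other pathways a median of 5 (range 0 to 18), and all 32851 promoters of the table a median of 6. Of all these promoters 27.3% held 15 or more CG, as did 7 of the 30 enzymes, of which 5 were branched-chain enzymes.

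The RNA of most of these enzymes was lower on FPC in hepatocyte preparations under TMM scaling. Averaged over the sexes, 28 of 35 were called lower and 0 higher under TMM scaling, whereas scaling libraries to the 15 hepatocyte markers, chosen after the data were seen, left 1 lower (Hal) and called 4 higher (Auh, Dbt, Bckdhb and Hibch). Under TMM scaling the background was 6.65% of 14430 genes called lower and 5.47% called higher. Scaling to the markers called 12553 genes higher and 42 lower, so a call as higher was the usual outcome there. The median log2 fold change of the enzymes was -1.49, with all 35 below 0 and a range from -3.31 (Hal) to -0.04 (Auh), beside a median of 0.09 over all genes. Scaling to the markers moved the median of all genes to 1.87 and that of the enzymes to 0.20, so the enzymes stood 1.59 below the median gene under TMM and 1.67 below it under marker scaling. Rescaling a library shifts all its genes together, so this gap stays nearly the same by construction and is no second test. Without hepatocyte male FPC 4, 32 were called lower beside 11.9% of genes, with a median of -1.77 and 34 below 0. As a share of counts outside the 3 RNAs named above, the enzymes made up 0.445% to 1.13% in female chow and 0.200% to 0.375% in female FPC libraries, and 0.651% to 1.20% in male chow and 0.247% to 0.721% in male FPC libraries.

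Hepatocyte markers moved with the enzymes. All 15 of these secreted-protein genes, none of them an amino acid enzyme, were below 0 in the same comparison, 5 were called lower, and their median was -1.26 (range -1.87 to -0.41). Their summed level was 18820 to 70990 CPM in female chow, 6440 to 36520 in female FPC, 54990 to 115400 in male chow and 6818 to 55060 in male FPC libraries. Of the enzymes, 10 lay below every marker, 24 within the range of the markers and 1, Auh, above it. The sexes differed in this. In females the marker median was -0.76 beside -1.49 for the enzymes, and 29 enzymes lay below it, 12 of them below every marker. In males the marker median was -1.78 beside -1.50 for the enzymes, and 14 enzymes lay below it, 6 of them below every marker. No marker was called within a single sex. In bulk preparations fewer hepatocytes and less of an RNA per hepatocyte cannot be told apart. With the mean marker level of each library as a covariate, 2 enzymes were called lower, Hal (-2.14, adjusted p = 0.0215) and Got1 (-1.23, adjusted p = 0.0492), the median was -0.72 and 33 were below 0. The share of all genes called in that fit is not given here, so fewer calls cannot be read as particular to the enzymes. With libraries scaled to the markers, Hal was the one enzyme called lower (-1.70, adjusted p = 0.00271), and Auh (1.81, adjusted p = 0.00414), Dbt (1.39, adjusted p = 0.0325), Bckdhb (0.83, adjusted p = 0.0408) and Hibch (1.29, adjusted p = 0.0492) were called higher, in a setting that called 12553 genes higher and 42 lower.

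Other cell types also differed between the diets in these preparations. Of 10 Kupffer cell markers 6 were called lower, with a summed level of 4239 to 14010 CPM on chow and 1663 to 6024 CPM on FPC, and so were 4 of 8 endothelial markers, at 3649 to 9701 CPM on chow and 1074 to 4912 CPM on FPC. Of 7 markers of lipid-associated macrophages 3 were called higher, at 170.9 to 353.1 CPM on chow and 212.2 to 1313 CPM on FPC. Of the rest, 1 of 6 neutrophil markers (Ly6g) and 1 of 6 cholangiocyte markers (Spp1, also a macrophage marker) were called higher, and 0 of 10 stellate and 0 of 6 B and T cell markers were called. Neutrophil markers summed to 60.4 to 2850.0 CPM, with Ly6g and Mmp8 at 0 in a male FPC library, and cholangiocyte markers to 19.4 to 581.5 CPM, with Sox9 at 0 in a female chow library and Cldn4 at 0 in a male chow library. The part of these cells in the enzyme differences was not tested.

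**Figure D1:**
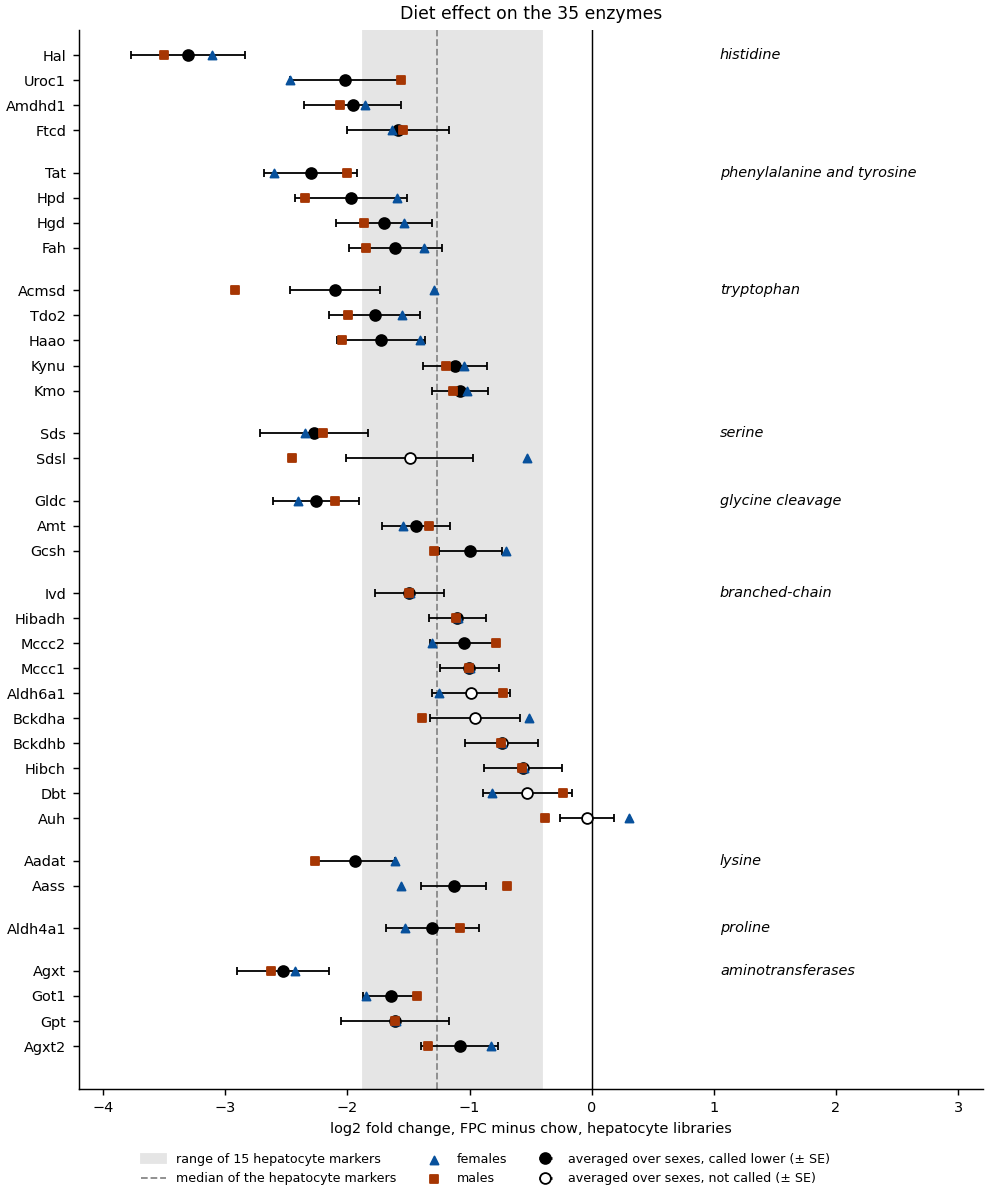
Log2 fold change, FPC minus chow, of the 35 enzymes in hepatocyte preparations, by pathway, with the average over the sexes ± SE (filled circles called lower, open circles not called), females as triangles, males as squares, and a grey band for the range of the 15 hepatocyte markers with their median as a dashed line. All 35 averaged values lie below 0 under TMM scaling, 10 of them below the band; with libraries scaled to the markers 17 lie below 0.

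Averaged over the sexes, pathway medians under TMM scaling ran from the histidine enzymes at the low end to the branched-chain enzymes nearest 0. Females kept both ends (-2.166 and -0.908). In males serine (-2.327), tryptophan (-1.997) and phenylalanine and tyrosine (-1.936) lay below histidine (-1.811), with the branched-chain enzymes nearest 0 (-0.762). Without male FPC 4, serine (-3.216) alone lay below histidine (-2.833) in males. The averaged order did not hold with libraries scaled to the markers, where the branched-chain median was 0.79 and the farthest from 0. Nor did it hold with the marker covariate, where proline (-0.32) was nearer 0 than the branched-chain enzymes (-0.49). Median averaged log2 fold changes under TMM were -1.99 for histidine (4 of 4 called lower), -1.84 for phenylalanine and tyrosine (4 of 4), -1.73 for tryptophan (5 of 5), -1.88 for serine (1 of 2), -1.44 for glycine cleavage (3 of 3), -1.53 for lysine (2 of 2), -1.30 for proline (1 of 1), -1.62 for the aminotransferases (4 of 4) and -0.97 for the branched-chain enzymes (4 of 10). Of the 7 enzymes that were not called, 6 were branched-chain enzymes and the other was the serine enzyme Sdsl. Without male FPC 4, 7 of 10 branched-chain enzymes (median -1.17) and 2 of 2 serine enzymes (-2.32) were called, the other pathways kept their counts, and the histidine median was -2.49. Whether pathways differ was not tested, since the enzymes were chosen with earlier results known. Averaged over a pathway's members in each library, the histidine enzymes were at 7.46 ± 0.87 (SD, n = 4) in female chow, 5.30 ± 0.59 in female FPC, 7.995 ± 0.62 in male chow and 5.49 ± 1.27 in male FPC (4.88 ± 0.43 without library 4). The branched-chain enzymes were at 5.58 ± 0.44, 4.72 ± 0.23, 5.98 ± 0.37 and 5.10 ± 0.57 in the same groups (4.82 ± 0.15 in male FPC without library 4). For all 35 enzymes the means were 6.53 ± 0.60, 5.15 ± 0.30, 7.07 ± 0.47 and 5.40 ± 0.82, so that FPC minus chow over both sexes was -1.52 against a pooled SD of 0.58 within groups. Without library 4 the male FPC mean of all 35 was 5.01 ± 0.27 (SD, n = 3).

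**Figure D2:**
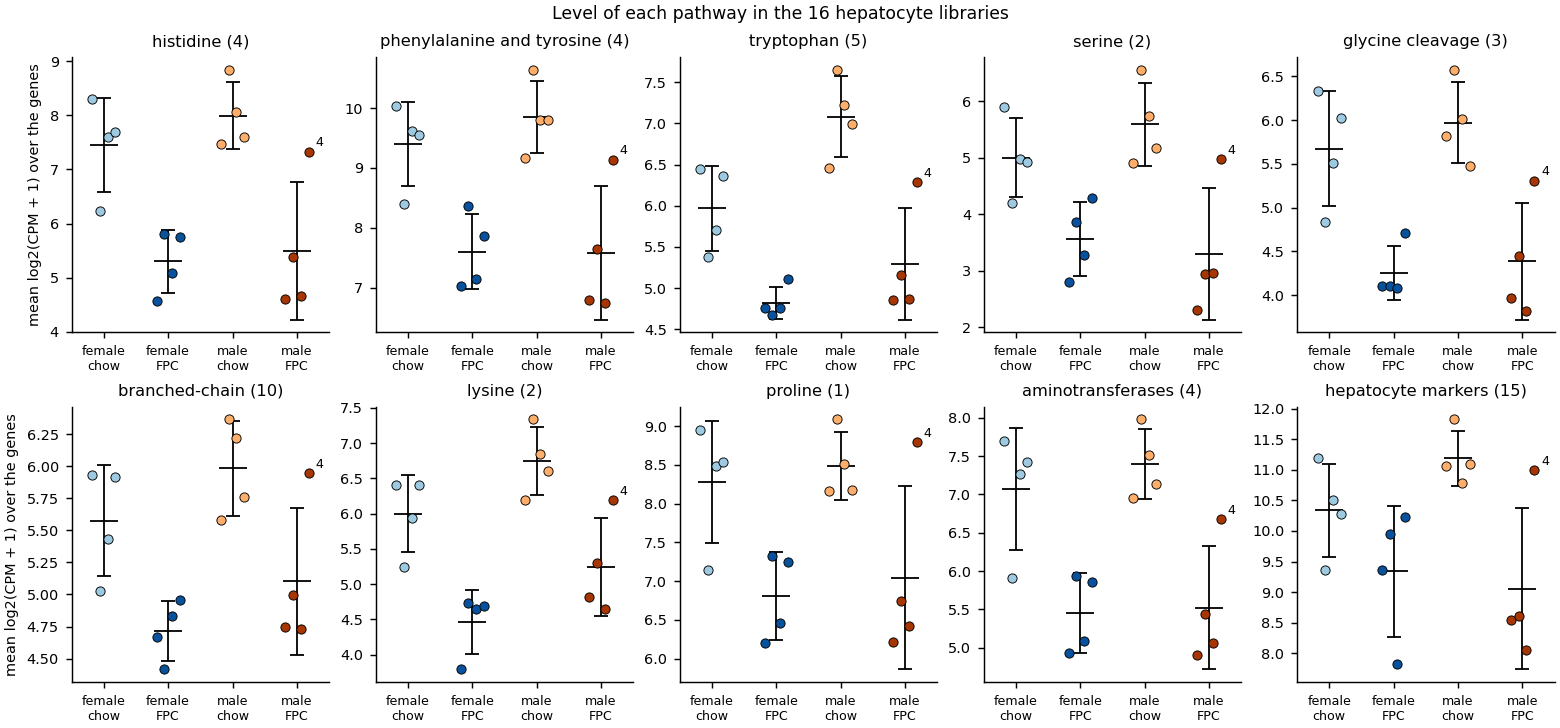
Mean log2(CPM + 1) of each pathway's members and of the 15 hepatocyte markers in every hepatocyte library, by sex and diet, with a bar for the group mean ± SD and the library male FPC 4 marked 4. Group means are lower on FPC in each panel under TMM scaling (with libraries scaled to the markers 12 of the 28 called enzymes turn above 0), and male FPC 4 is the highest of its group in all panels.

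In the histidine pathway, averaged over the sexes, all 4 enzymes fell under TMM scaling and stayed below 0 with libraries scaled to the markers. With that scaling 4 of 4 were below 0 in females and 3 of 4 in males (male median -0.07). Hal (chr10:93488768-93519304, plus strand), which removes ammonia from histidine to give urocanate, had the lowest log2 fold change of all, -3.31 ± 0.47 (SE), adjusted p = 0.00133. Hal RNA was at 507, 91.4, 268 and 284 CPM in the female chow libraries and at 19.7, 50.7, 28.2 and 34.8 CPM in the female FPC libraries. Male Hal levels were 232, 765, 402 and 284 CPM on chow and 15.5, 28.3, 13.2 and 96.1 CPM on FPC. Neither sex showed an overlap between diets, and only the male FPC library 4, at 96.1 CPM, came above the lowest chow library, female chow 2. Uroc1, urocanate hydratase, takes the next step, and its averaged log2 fold change was -2.02. Female libraries held Uroc1 at 401, 115, 332 and 314 CPM on chow and 34.7, 64.5, 45.7 and 64.4 CPM on FPC, and male libraries held it at 222, 559, 315 and 223 CPM and 30.5, 61.9, 37.1 and 323 CPM. Here females did not overlap, while male FPC 4 lay among the male chow libraries. Amdhd1 (chr10:93523338-93540033, minus strand), the imidazolonepropionase that opens the ring, fell by 1.96 ± 0.40 (SE) on the log2 scale, adjusted p = 0.00997. Female libraries held Amdhd1 at 191, 41.6, 106 and 137 CPM on chow and 13.4, 46.5, 27.2 and 44.6 CPM on FPC, and male libraries held it at 118, 248, 154 and 121 CPM and 17.8, 33.6, 17.3 and 89.3 CPM. In males all FPC libraries were below all chow libraries, and in females chow 2 overlapped with FPC. Ftcd, which hands the formimino group to tetrahydrofolate, changed by -1.59. Female libraries held Ftcd at 247, 69.1, 149 and 147 CPM on chow and 28.5, 58.97, 33.3 and 77.2 CPM on FPC, and male libraries held it at 156, 418, 261 and 184 CPM and 34.9, 46.03, 39.8 and 233 CPM. Its diets overlapped in both sexes, through female chow 2 and male FPC 4.

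Averaged over the sexes, all 4 enzymes of phenylalanine and tyrosine breakdown fell under TMM scaling, and each stayed below 0 with libraries scaled to the markers. With that scaling 4 of 4 were below 0 in females and 2 of 4 in males (male median -0.10). Tat (chr8:109990437-109999803, plus strand) moves the amino group off tyrosine, and its averaged log2 fold change was -2.30 ± 0.38 (SE), adjusted p = 0.00325. Tat RNA was at 919.6, 495, 656 and 774 CPM in the female chow libraries and at 84.99, 137, 158 and 89.3 CPM in the female FPC libraries. Male Tat levels were 745, 1484, 944 and 773 CPM on chow and 119, 129, 101 and 639 CPM on FPC. The diets did not overlap within either sex. Hpd, hydroxyphenylpyruvate dioxygenase, gives homogentisate and was the most abundant of the 35 per kilobase of exon in every hepatocyte group, at 912 ± 458 CPM per kilobase in female chow, 302 in female FPC, 1057 in male chow and 208 in male FPC. Its level in females was 2930.5, 600.4, 2185 and 2047 CPM on chow against 339.9, 1240.3, 288 and 703 CPM on FPC. The male libraries gave 1073, 3684, 1919 and 2322 CPM on chow and 187, 385, 186 and 1013 CPM on FPC for Hpd. Its log2 fold change was -1.97, with overlap in females only. Hpd overlaps Psmd9 on the opposite strand, and which strand was counted is not known from the sources used here. Hgd, homogentisate dioxygenase, opens the aromatic ring and changed by -1.70. Female libraries held Hgd at 638, 177, 482 and 427 CPM on chow and 83.1, 230.0, 84.3 and 198 CPM on FPC, and male libraries held it at 365, 1072, 562 and 529.5 CPM and 78.97, 154, 80.3 and 384 CPM. Fah, fumarylacetoacetate hydrolase, ends the pathway and changed by -1.61. Female libraries held Fah at 698, 241, 542 and 458 CPM on chow and 117, 297, 102 and 233 CPM on FPC, and male libraries held it at 375, 1117, 633 and 659.9 CPM and 80.9, 208, 84.6 and 405 CPM. Hgd and Fah overlapped between diets in both sexes. Female chow 2 was the lowest chow library for all 4 enzymes and male FPC 4 the highest male FPC library.

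The 5 tryptophan enzymes fell under TMM scaling, of which Kmo and Kynu turned above 0 with libraries scaled to the markers (0.72 and 0.55). Tdo2 (chr3:81957090-81976202, minus strand) opens the indole ring of tryptophan and changed by -1.77. Tdo2 RNA was at 154, 75.4, 139 and 208 CPM in the female chow libraries and at 45.4, 18.2, 54.6 and 78.03 CPM in the female FPC libraries. Male Tdo2 levels were 223, 701, 574 and 433 CPM on chow and 73.2, 61.7, 85.8 and 267 CPM on FPC. The libraries overlapped in both sexes: female FPC 4 lay above female chow 2, and male FPC 4 above male chow 1. Kmo, kynurenine monooxygenase, changed by -1.08. Female libraries held Kmo at 97.1, 77.9, 59.4 and 124 CPM on chow and 36.5, 37.3, 56.6 and 46.1 CPM on FPC, and male libraries held it at 119.5, 240.4, 182 and 188 CPM and 59.2, 86.5, 57.7 and 131 CPM. Kmo overlaps Fh1 on the opposite strand. Kynu, kynureninase, changed by -1.12. Female libraries held Kynu at 56.99, 37.1, 39.1 and 56.7 CPM on chow and 30.1, 18.1, 22.4 and 21.2 CPM on FPC, and male libraries held it at 61.1, 129, 104 and 77.5 CPM and 26.6, 32.96, 24.7 and 81.9 CPM. For both, females did not overlap and males did through library 4. Haao (chr17:83831156-83847963, minus strand), hydroxyanthranilate dioxygenase, leads to the precursor of NAD, and its log2 fold change was -1.73 ± 0.36 (SE), adjusted p = 0.0109. Female libraries held Haao at 617, 209, 459 and 412 CPM on chow and 106, 225, 81.8 and 227 CPM on FPC, and male libraries held it at 355, 918, 587 and 444 CPM and 64.4, 141, 73.9 and 282 CPM. Males did not overlap for Haao, and females did. Acmsd (chr1:127729413-127767978, plus strand) draws the same intermediate away from NAD, and its log2 fold change was -2.10 ± 0.37 (SE), adjusted p = 0.00477. Its level in females was 8.19, 1.62, 1.42 and 5.03 CPM on chow against 1.46, 2.35, 1.33 and 1.61 CPM on FPC. The male libraries gave 7.91, 15.3, 10.3 and 10.8 CPM on chow and 1.54, 1.19, 1.15 and 2.46 CPM on FPC for Acmsd. Males did not overlap and females did. Acmsd had few counts, as low as 4 in a male FPC library, which limits its precision.

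Of the serine enzymes Sds was called and Sdsl was not. Sds (chr5:120476526-120483932, plus strand), serine dehydratase, turns serine into pyruvate and ammonia, and its log2 fold change was -2.27 ± 0.44 (SE), adjusted p = 0.0081. Sds RNA was at 244, 60.1, 121 and 124 CPM in the female chow libraries and at 18.9, 27.3, 34.5 and 26.99 CPM in the female FPC libraries. Male Sds levels were 96.3, 284, 171 and 112 CPM on chow and 10.7, 13.7, 23.97 and 102 CPM on FPC. In females the diets did not overlap, and in males FPC 4 lay among the chow libraries. Sds overlaps Plbd2 on the opposite strand. Sdsl, a related serine dehydratase, was at 13.5, 4.52, 7.12 and 6.38 CPM on chow and 1.46, 6.45, 1.67 and 12.7 CPM on FPC in females. With 8.19, 30.05, 15.3 and 10.3 CPM on chow and 1.07, 3.03, 1.42 and 8.62 CPM on FPC in males, its difference of -1.49 ± 0.52 (SE), adjusted p = 0.0647, did not pass the threshold. Without male FPC 4 it was -1.82 and was called (adjusted p = 0.0174).

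The 3 glycine cleavage genes fell under TMM scaling, and Amt and Gcsh turned above 0 with libraries scaled to the markers (0.33 and 0.75). Gldc (chr19:30098447-30175429, minus strand), the subunit that removes the carboxyl group of glycine, had a log2 fold change of -2.25 ± 0.35 (SE), adjusted p = 0.00218. Gldc RNA was at 142, 44.5, 67.6 and 74.9 CPM in the female chow libraries and at 14.2, 15.9, 14.03 and 18.2 CPM in the female FPC libraries. Male Gldc levels were 72.04, 155, 96.3 and 51.1 CPM on chow and 11.4, 16.96, 10.9 and 51.7 CPM on FPC. Females did not overlap, and male FPC 4 lay just above male chow 4. Amt (chr9:108296853-108302302, plus strand), the aminomethyltransferase, had a log2 fold change of -1.44 ± 0.28 (SE), adjusted p = 0.00797. Female libraries held Amt at 52.8, 18.5, 29.6 and 50.6 CPM on chow and 13.9, 9.73, 12.6 and 15.7 CPM on FPC, and male libraries held it at 41.7, 64.8, 47.5 and 34.1 CPM and 13.01, 20.5, 9.93 and 33.3 CPM. Neither sex overlapped for Amt. Gcsh, the lipoyl-carrying subunit, changed by -0.99. Female libraries held Gcsh at 66.2, 24.98, 44.4 and 68.97 CPM on chow and 21.6, 27.1, 22.7 and 54.8 CPM on FPC, and male libraries held it at 56.8, 84.05, 56.6 and 46.8 CPM and 21.2, 25.6, 20.8 and 33.3 CPM. Its diets overlapped in females and not in males.

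**Figure D3:**
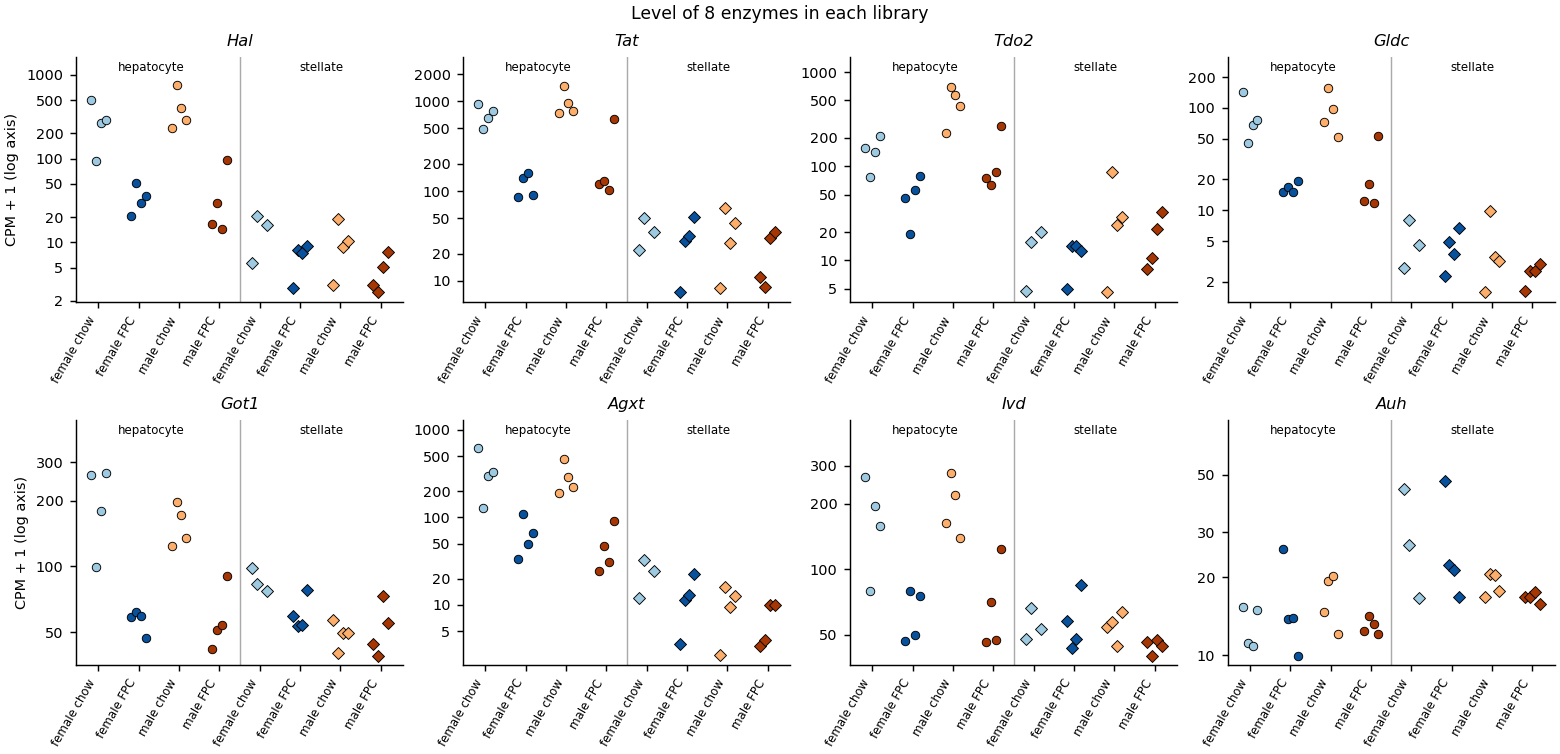
CPM + 1 on a log axis of 8 enzymes in every library, by group, with hepatocyte libraries as circles and stellate libraries as diamonds, each preparation scaled by itself. Hal, Tat, Got1 and Agxt show no overlap between diets within either sex of the hepatocyte libraries, whereas the diets overlap for Auh in both sexes.

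The branched-chain enzymes had the median nearest 0 under TMM scaling. Of the 10, 4 were called lower, or 7 without male FPC 4, when Bckdha (-1.22), Bckdhb (-1.02) and Aldh6a1 (-1.25) were called as well. All of the 4 turned above 0 with libraries scaled to the markers (Ivd 0.23, Mccc1 0.76, Mccc2 0.67 and Hibadh 0.72). The keto acid dehydrogenase, which commits all 3 amino acids to oxidation, was not called for any of the subunits listed with all libraries in the fit. Its subunit Bckdha (chr7:25629946-25658981, minus strand) was at 322, 116, 259 and 191 CPM on chow and 73.8, 232, 67.2 and 248 CPM on FPC in females. In males Bckdha was at 189.6, 432, 301 and 252 CPM and 47.97, 113, 63.1 and 227 CPM, and its log2 fold change was -0.95 ± 0.37 (SE), adjusted p = 0.0881. Bckdha overlaps B3gnt8 on the opposite strand, and its diets overlapped in both sexes. The other subunits gave -0.74 (Bckdhb, adjusted p = 0.1) and -0.53 (Dbt, adjusted p = 0.304).

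On the leucine branch, Ivd (chr2:118861954-118882909, plus strand), isovaleryl-CoA dehydrogenase, had a log2 fold change of -1.49 ± 0.28 (SE), adjusted p = 0.00736. Ivd RNA was at 264, 78.01, 195 and 158 CPM in the female chow libraries and at 45.96, 78.6, 48.9 and 74.6 CPM in the female FPC libraries. Male Ivd levels were 163, 276, 218 and 139 CPM on chow and 45.1, 69.4, 46.4 and 123 CPM on FPC. Males did not overlap for Ivd. Mccc1 and Mccc2 encode the subunits of methylcrotonyl-CoA carboxylase and changed by -1.002 and -1.04. Female libraries held Mccc1 at 40.9, 18.4, 29.3 and 37.00 CPM on chow and 17.4, 17.8, 14.5 and 13.2 CPM on FPC, and male libraries held it at 30.8, 58.9, 46.5 and 28.8 CPM and 16.2, 17.4, 14.3 and 36.3 CPM. Female libraries held Mccc2 at 34.3, 18.2, 31.5 and 34.8 CPM on chow and 11.9, 8.804, 14.6 and 12.6 CPM on FPC, and male libraries held it at 30.3, 50.03, 42.9 and 29.3 CPM and 13.4, 18.7, 11.2 and 48.7 CPM. For both subunits females did not overlap, and in males FPC 4 lay among the chow libraries. Auh (chr13:52835119-52929681, minus strand), methylglutaconyl-CoA hydratase, comes next, and its log2 fold change was -0.04 ± 0.22 (SE), adjusted p = 0.91. Auh RNA was at 14.3, 10.2, 9.84 and 13.9 CPM in the female chow libraries and at 24.9, 12.8, 12.9 and 8.902 CPM in the female FPC libraries. Male Auh levels were 13.6, 18.5, 19.3 and 11.04 CPM on chow and 11.4, 13.2, 12.2 and 11.1 CPM on FPC. The Auh values of all groups overlapped, and female FPC 1 held the highest. On the valine branch Hibadh, hydroxyisobutyrate dehydrogenase, changed by -1.10. Female libraries held Hibadh at 172, 84.3, 158 and 209 CPM on chow and 53.4, 82.3, 76.03 and 80.8 CPM on FPC, and male libraries held it at 207, 309.9, 203 and 132 CPM and 77.4, 98.9, 75.2 and 145 CPM. Females did not overlap for Hibadh. Hibch, hydroxyisobutyryl-CoA hydrolase (-0.56, adjusted p = 0.217), and Aldh6a1, methylmalonate semialdehyde dehydrogenase (-0.99, adjusted p = 0.0516), did not pass the threshold.

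Both lysine enzymes fell under TMM scaling, and Aass turned above 0 (0.69) with libraries scaled to the markers. Aass (chr6:23072173-23132986, minus strand), aminoadipic semialdehyde synthase, carries out the opening steps of lysine breakdown and changed by -1.13. Aass RNA was at 147, 68.98, 94.2 and 158 CPM in the female chow libraries and at 21.2, 35.01, 54.4 and 47.5 CPM in the female FPC libraries. Male Aass levels were 123, 185, 166 and 121 CPM on chow and 79.3, 63.9, 63.95 and 163 CPM on FPC. Females did not overlap, and male FPC 4 lay among the male chow libraries. Aadat (chr8:60505932-60545677, plus strand), aminoadipate aminotransferase, also acts on kynurenine, and its log2 fold change was -1.94 ± 0.33 (SE), adjusted p = 0.00434. Female libraries held Aadat at 46.95, 19.6, 38.2 and 44.5 CPM on chow and 7.597, 18.6, 10.3 and 12.6 CPM on FPC, and male libraries held it at 41.7, 139, 78.7 and 76.1 CPM and 8.95, 23.02, 8.697 and 31.4 CPM. Neither sex overlapped for Aadat. The proline enzyme Aldh4a1, which oxidises pyrroline carboxylate to glutamate, changed by -1.30 under TMM and stood at 0.20 with libraries scaled to the markers. Female libraries held Aldh4a1 at 493, 141, 358 and 369 CPM on chow and 72.6, 160.1, 87.2 and 151 CPM on FPC, and male libraries held it at 287, 544, 366 and 288 CPM and 73.4, 107, 85.1 and 443 CPM. Its diets overlapped in both sexes, through female chow 2 and male FPC 4.

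The 4 aminotransferases fell under TMM scaling, and Got1 and Agxt2 turned above 0 with libraries scaled to the markers (0.21 and 0.58). Got1 (chr19:43499752-43524605, minus strand), the cytosolic aspartate aminotransferase of the malate-aspartate shuttle, had a log2 fold change of -1.64 ± 0.23 (SE), adjusted p = 0.00142. Got1 RNA was at 261, 97.8, 178 and 265 CPM in the female chow libraries and at 57.4, 61.02, 58.3 and 45.9 CPM in the female FPC libraries. Male Got1 levels were 123, 196, 172 and 133 CPM on chow and 40.6, 50.2, 52.9 and 89.3 CPM on FPC. Agxt (chr1:93135240-93145421, plus strand), which clears glyoxylate with alanine as amino donor, had a log2 fold change of -2.53 ± 0.38 (SE), adjusted p = 0.0017. Female libraries held Agxt at 624, 128, 296 and 334 CPM on chow and 32.3, 109, 49.2 and 66.2 CPM on FPC, and male libraries held it at 187, 463, 289 and 221 CPM and 23.6, 46.5, 29.7 and 91.2 CPM. Got1 and Agxt were the 2 enzymes for which all 8 FPC libraries lay below all 8 chow libraries of both sexes. Gpt, alanine aminotransferase, changed by -1.61. Female libraries held Gpt at 194, 50.2, 158 and 156 CPM on chow and 24.8, 70.7, 19.3 and 69.8 CPM on FPC, and male libraries held it at 134, 286, 172 and 147 CPM and 24.1, 39.8, 21.5 and 161 CPM. Agxt2, a mitochondrial aminotransferase that acts on glyoxylate and dimethylarginine, changed by -1.08. Female libraries held Agxt2 at 56.6, 18.7, 65.8 and 60.4 CPM on chow and 16.1, 27.8, 20.9 and 49.1 CPM on FPC, and male libraries held it at 73.1, 155, 128 and 87.04 CPM and 30.3, 34.8, 31.9 and 80.7 CPM. Gpt and Agxt2 overlapped between diets in both sexes, through female chow 2 and male FPC 4.

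Within a single sex, fewer enzymes passed the threshold at nearly the same median. In females 1 of 35 was called, Got1 at -1.85 ± 0.33 (SE), adjusted p = 0.025, beside a background of 0.215% of genes called lower. The female median was -1.49 and 34 of 35 lay below 0, the exception being Auh at 0.30. In males 4 were called lower beside a background of 0.360%. These were Acmsd at -2.92 ± 0.54 (SE), adjusted p = 0.0343, Hal at -3.50 ± 0.67 (SE), adjusted p = 0.0349, Agxt at -2.62 ± 0.54 (SE), adjusted p = 0.046, and Aadat at -2.27 ± 0.48 (SE), adjusted p = 0.0477. The male median was -1.50 with all 35 below 0. Leaving out male FPC 4 called 30 enzymes in males beside 7.20% of genes, with a median of -2.03, and leaving out any other male library except chow 1, which left 3, called 0. With libraries scaled to the markers 0 were called lower in females. In males that scaling called 1 lower (Hal) and 4 higher (Auh, Dbt, Bckdhb and Aass), with a median of 0.63 and 13 of 35 below 0, beside a median of 2.47 over all genes.

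Counted without a model, 15 of 35 enzymes had all 4 female FPC libraries below all 4 female chow libraries, and 12 had this in males. The background over 14430 genes was 3.44% in females and 11.1% in males. For FPC above chow it was 2.13% and 6.14% of genes and 0 enzymes in either sex. In each sex it held for 6 enzymes, Hal, Tat, Amt, Aadat, Got1 and Agxt, beside 0.956% of all genes. Got1 and Agxt had it over all 16 libraries, beside 0.347% of genes. Without male FPC 4, 32 enzymes had it in males (22.5% of genes) and 15 in each sex (2.15%).

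No difference between the sexes passed the threshold for these enzymes. For the interaction, the male minus the female diet effect, edgeR called 0 of 35 enzymes and 0% of all genes, and DESeq2 called 0 enzymes and 2 genes. At an unadjusted p under 0.05 edgeR gave 1 enzyme, Acmsd at -1.63 ± 0.72 (SE), beside 605 of 14430 genes. The median interaction was -0.02, and -0.65 without male FPC 4. On chow 0 enzymes were called between males and females (background 0.430%, 0 with DESeq2), and 33 of 35 were above 0 with a median of 0.41, beside 0.81 for the hepatocyte markers. At an unadjusted p under 0.05 there were 6 enzymes, beside 863 of 14430 genes, and their values were above 0: Tdo2 (1.75), Acmsd (1.44), Aadat (1.17), Agxt2 (1.14), Kmo (1.03) and Kynu (0.97). On FPC 0 were called as well (background 0.333%, 0 with DESeq2), 6 had an unadjusted p under 0.05 beside 1648 of 14430 genes, among them Tdo2 (1.30) and Aass (1.22), and the median was 0.43, which became -0.25 without male FPC 4.

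**Figure D4:**
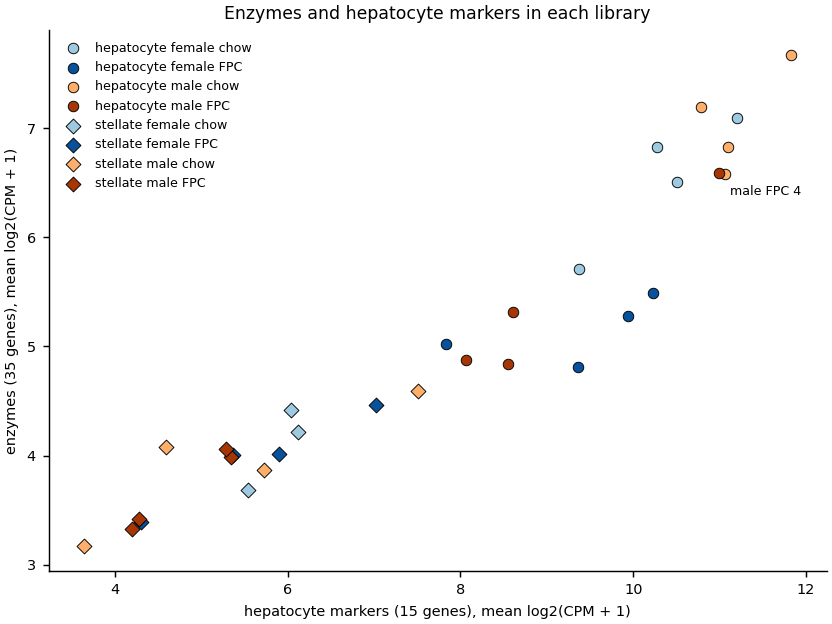
Mean log2(CPM + 1) of the 35 enzymes against that of the 15 hepatocyte markers in each of the 31 libraries, by preparation (each scaled by itself), sex and diet. Under TMM scaling the FPC hepatocyte libraries other than male FPC 4 lie below every chow hepatocyte library on the enzyme axis. On the marker axis they lie below every chow hepatocyte library except female chow 2. The library male FPC 4, at 6.59 and 10.99, lies among the chow libraries.

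In the stellate preparations no diet difference was called. edgeR called 0 of 35 enzymes and 0% of 15430 genes in females, in males and averaged over the sexes, and DESeq2 called 0 enzymes in each, while it called 56 genes lower and 105 higher in the averaged comparison. The averaged median of the enzymes was -0.15 with 26 below 0, and at an unadjusted p under 0.05 there was Hal alone (-1.27), beside 1128 genes. The hepatocyte markers had a median of -0.65 there. Hal lay at 4.59 to 19.4 CPM in female chow, 1.87 to 8.06 in female FPC, 2.07 to 18.0 in male chow and 1.56 to 6.61 in male FPC stellate libraries. No enzyme had stellate FPC libraries that were all above or all below the chow libraries in a sex, beside 2.48% of genes with FPC below chow and 1.64% above it in females, and 3.38% and 6.18% in males.

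Set against the stellate preparations on chow, 34 of 35 enzymes were called higher in hepatocyte preparations, beside a background of 26.8% of 15754 genes, and Auh, at -0.17 ± 0.23 (SE), adjusted p = 0.541, was not called. The median log2 difference of the enzymes was 3.45, and that of the hepatocyte markers 5.44 (range 4.55 to 6.26). A difference within the range of the markers was found for 12 enzymes: all 4 of histidine, all 4 of phenylalanine and tyrosine, and Sds, Gldc, Aadat and Agxt. The other 23 had a smaller difference than every marker, among them all 5 tryptophan and all 10 branched-chain enzymes. Got1 (2.01) and Haao (3.45) had intermediate differences.

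**Figure D5:**
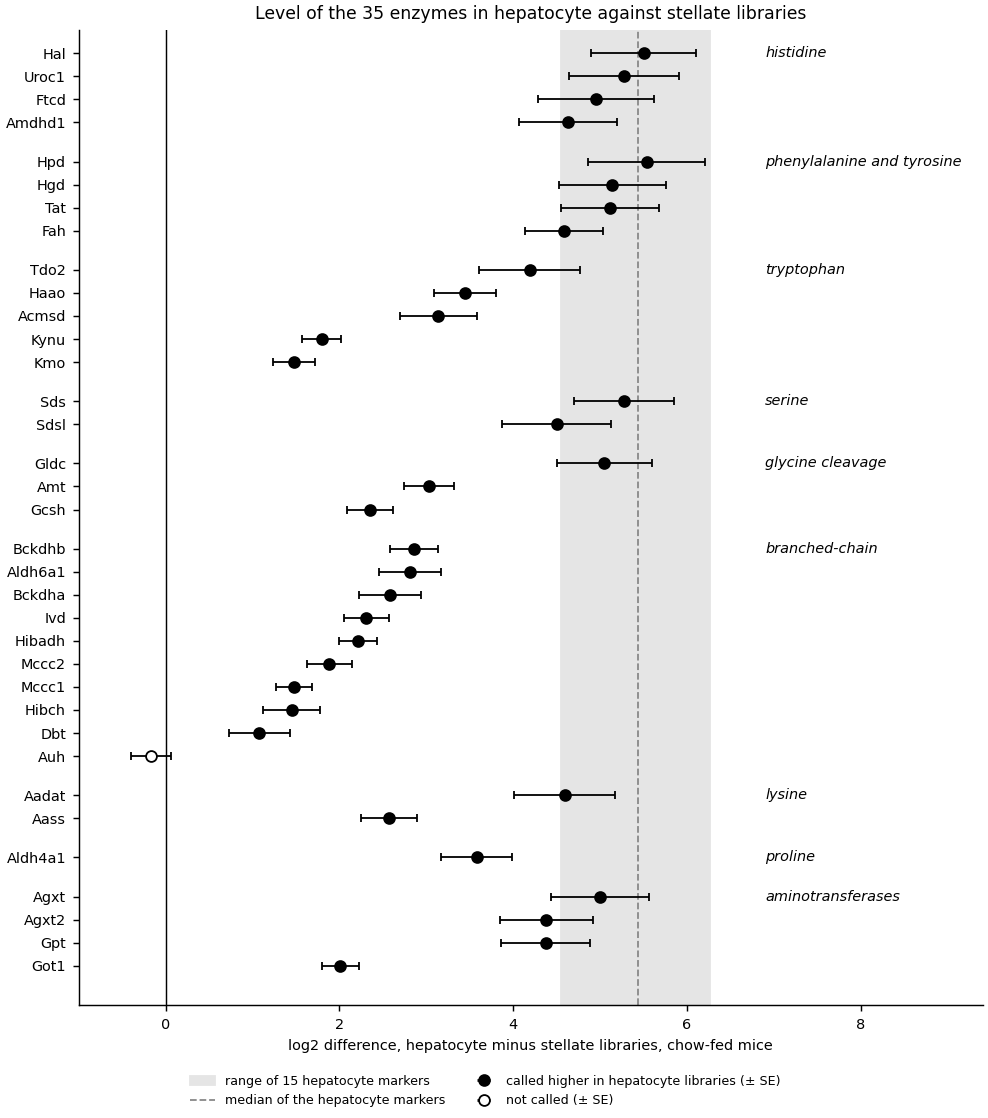
Log2 difference, hepatocyte minus stellate preparations on chow, of the 35 enzymes ± SE by pathway, with a band for the range of the 15 hepatocyte markers. Histidine, phenylalanine and tyrosine enzymes lie in the band from 4.55 to 6.26, branched-chain enzymes lie below it, and Auh lies at -0.17.

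Other genes of amino acid metabolism, from lists that hold none of the 35, were counted in the same averaged hepatocyte comparison, where 6.65% of genes were called lower. Of 11 urea cycle and ammonia genes 9 were called lower, among them the glutaminase Gls2 (-3.19), Otc (-1.99), Nags (-1.96) and Arg1 (-1.88). Of 10 methionine and cysteine genes 8 were called lower, such as Cth (-2.97), Gnmt (-2.94) and Bhmt (-2.89). Other steps of the same pathways gave 21 of 32, among them Ido2 (-2.04) and Afmid (-1.78) of the kynurenine pathway. Of 7 amino acid synthesis genes 0 were called, too few genes to differ from the background, with a median of 0.39. That median was 0.65 in females and -0.07 in males, where 6 of 7 were below 0. Amino acid transporters gave 2 of 10, Slc3a1 (-1.65) and Slc25a44 (-0.70), a mitochondrial carrier of branched-chain amino acids. These lists were not refitted with libraries scaled to the markers.

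Promoters of the 30 enzymes with a RefSeq entry, 250 bases before to 50 after the start, were searched on both strands for short binding motifs of liver transcription factors. The nuclear receptor motif CAAAGTCCA, which HNF4A is known to bind, was found in Aadat and Agxt2 and in 0.47% of the 32851 promoters. Both matches, in capitals, are shown with 10 bases on either side on the gene's strand (GRCm38.p6, chr8:60506042-60506070 and chr15:10358502-10358530, both genes on the plus strand), the Aadat match being the reverse complement.
Aadat: cctctgtggaTGGACTTTGtcccttctgc
Agxt2: cttctaatatCAAAGTCCAgtccagtcag
The Aadat match starts at position -72 relative to the start of transcription and the Agxt2 match at -21 of the nearest annotated start. The motifs TGACCTTTG (0.48% of all promoters), TTGCGCAA (0.18%), TTGCATAA (0.74%), TGACGTCA (1.79%) and GTTAATNAT, with N for any base (0.8%), were found in 0 of the 30. As a description over the 30 enzymes, the number of CG dinucleotides in the 250 upstream bases had a Spearman correlation of 0.505 with the averaged log2 fold change, across genes that share the same libraries and are not independent replicates. The same number had a Spearman correlation of -0.476 with the hepatocyte minus stellate difference on chow, so a link with the diet change alone cannot be read from it.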

How the data were processed

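The authors deposited raw counts per gene symbol for 31 libraries. Per the submitters' processing notes these came from STAR and featureCounts on mm10, with versions, annotation and strand setting not given in the sources used here. Per the labels' protocols, hepatocytes were pelleted at low speed, stellate cells came from a Nycodenz gradient, and cDNA was amplified, so reads are not independent molecules.

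From these counts edgeR 4.0.16 (R 4.3.3) fitted 1 quasi-likelihood model of 4 groups (sex by diet) per preparation after filterByExpr and TMM scaling, and 1 of 8 groups for the difference between preparations. Tests were two-sided, with Benjamini-Hochberg adjustment over all genes tested and a threshold of 0.05. Alternatives were DESeq2 1.42.0, its size factors, no filter, GC and length offsets, no Rn45s, Lars2 and Mir6236, the compared groups alone, a replicate block, the marker level as covariate, leaving out each library and, chosen after seeing the data, libraries scaled to the markers. Equal replicate numbers correlated above 0.1 in every pair only between the female and male FPC hepatocyte groups (0.265, 0.493, 0.642 and 0.386). Equal numbers were not compared between hepatocyte and stellate preparations, so whether they share a mouse was not examined.

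The members and lists were chosen with earlier results of these data known. All hepatocyte values are given for enzymes called in a diet comparison and for committing enzymes, full statistics for at most 12 enzymes per comparison by smallest p, and Sdsl, Auh and the uncalled branched-chain enzymes were named besides. Of other lists at most 4 called genes are named. Some genes that this rule would name, and 1 list, are not reported here. Gene spans are from GENCODE M21 on GRCm38, where 15 of the 35 overlap another gene of the table, 4 of them a tested one. On simulated data of 14430 genes the averaged comparison recovered 26% of log2 changes of -1, 80% of -2 and 98% of -3. The simulation changed 50 genes at each size and held no sex difference, whereas 959 genes were called lower in the data. These rates therefore need not hold for the data. Figures used Python 3.11.15 and matplotlib 3.10.9.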

Additional observations from a re-analysis of the deposited data

Results flagged for a closer look

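Within groups of 4 libraries, 17 of 245 enzyme and group combinations had 1 library whose gap to its nearest neighbour took up most of the group's range by Dixon's 95% criterion, where chance flags about 1 in 20 groups. In hepatocyte male FPC 4, which also stood apart in ribosomal reads, 4 enzymes were far above the other male FPC libraries. They were Tat at 638.7 CPM (others 100.6 to 128.7), Ftcd at 232.8 CPM (34.91 to 46.03), Aldh6a1 at 194.6 CPM (60.68 to 66.43) and Agxt2 at 80.69 CPM (30.35 to 34.79). In hepatocyte female chow 2, 3 enzymes were far below: Gpt at 50.17 CPM (others 155.9 to 194.1), Agxt2 at 18.73 CPM (56.63 to 65.76) and Mccc2 at 18.19 CPM (31.45 to 34.76).

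The other 10 were in stellate preparations. Stellate female FPC 4 was high for Aldh4a1 at 107.8 CPM (31.39 to 36.32), Hibadh at 78.58 CPM (48.7 to 50.9) and Sdsl at 1.791 CPM (0.4854 to 0.5975). Stellate male chow 2 was high for Gpt at 25.18 CPM (6.193 to 7.886), Mccc2 at 15.38 CPM (9.836 to 10.43) and Sdsl at 1.923 CPM (0.2464 to 0.3363). Stellate male FPC 1 was low for Haao at 34.26 CPM (43.88 to 45.78) and Mccc2 at 8.06 CPM (11.72 to 12.36) and high for Mccc1 at 18.09 CPM (16.53 to 16.75). Stellate female FPC 1 was low for Tdo2 at 3.938 CPM (11.48 to 13.11).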

How the results depend on the processing

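The count of enzymes called in the averaged hepatocyte comparison was 28 to 30 under DESeq2, its size factors, no filter, GC and length offsets, the removal of 3 RNAs and the replicate block (30), and each kept all 28. With the marker level as a covariate it was 2 and with libraries scaled to the markers 1. It was 21 to 32 when a library was left out, with 21 without female chow 1, male FPC 1 or male FPC 3, and 21 of the 28 enzymes were called whichever library was left out. Those lost at least once were Agxt2, Ftcd, Mccc2, Mccc1, Gpt, Aldh4a1 and Gcsh. The share of all genes called is not given here for most of these settings, so the counts alone show nothing particular to the enzymes. Scaling to the markers reversed 12 of the 28: Agxt2 to 0.575, Kynu to 0.551, Mccc2 to 0.669, Mccc1 to 0.757, Ivd to 0.225, Got1 to 0.206, Kmo to 0.717, Hibadh to 0.716, Aass to 0.692, Aldh4a1 to 0.195, Gcsh to 0.754 and Amt to 0.329. This scaling sets the marker median near 0 (0.06) by construction.

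In females the count of 1 (0.215% of all genes called lower) became 14 with DESeq2 (2.07%), 5 without a filter (0.261%) and 5 with GC and length offsets (0.693%). It was 0 with the replicate block (0.049%), 0 with the compared groups alone, 0 with libraries scaled to the markers and 0 to 5 without single libraries. For the male counts the share of all genes in each setting is not given here. In males the count of 4 became 2 with DESeq2 size factors, 21 with DESeq2, 0 with the marker covariate, 2 with the compared groups alone, 3 with the replicate block, 1 with libraries scaled to the markers (4 others higher) and 0 to 30 without single libraries. The cause was not tested. Of all calls in the averaged comparison 45.1% were higher on FPC, 57.6% with DESeq2 and 30.6% with the block. Counts of 0 for the interaction, the sex differences and the stellate preparations stayed at 0 in all settings run, and that of 34 between preparations stayed at 34. Between the female and male FPC hepatocyte groups, where equal numbers correlated, the block changed no call. In other pairs of groups equal numbers correlated for some replicates only, and whether a number marks anything shared there was not tested. Depth limits hepatocyte male FPC 4 most.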
